A study of Oryctolagus cuniculus with 12 samples.

Results

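The cytosolic heat shock response and the unfolded protein response were followed in rabbit cornea through 40 named genes, which were chosen by gene name. Of these names, 13 belong to the cytosolic heat shock response, 2 to the mitochondrial chaperonin and 25 to the endoplasmic reticulum (ER). The HSP70 family was left out. The table of 29076 genes had an entry for 38 of the names, and 37 carried enough counts to be tested. DNAJB1 and CRELD2 had no entry under those names and were not analysed here. CALR, the ER lectin chaperone calreticulin, was listed at 0 in all libraries but control 1, where it had 0.174 CPM. Whether CALR is silent here or its reads were lost or assigned elsewhere was not tested, so it is not read as absent.

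The study sequenced RNA from the cornea of rabbits that were 6 months old and kept on a normal diet, with 3 libraries each of blue light, GL, RL and control. What GL and RL stand for, and which wavelength or intensity was used, is not stated in the labels. They attach the same text, a light exposure of 6 weeks, to every library, controls included, so nothing beyond the group name tells what the controls received. The labels do not say whether libraries of a group came from separate animals, so p-values measure the spread between these libraries, which may be technical.

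Cells answer unfolded protein in the cytosol through heat shock factors such as HSF1, which switch on chaperones that hold, refold or hand on the damaged protein. Unfolded protein in the ER is sensed by IRE1 (gene ERN1), PERK (gene EIF2AK3) and ATF6, which act through the transcription factors XBP1, ATF4 and cleaved ATF6 to raise ER chaperones and degradation factors. Much of this signalling runs through splicing of XBP1 mRNA, phosphorylation and protein cleavage, which a count per gene does not show. Small heat shock proteins such as HSPB1 are abundant in surface epithelia including that of the cornea.

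Depth was 40.9 to 64.7 M (mega) deposited counts per library. CPM below are counts scaled to a common library size (counts per M) with TMM, the edgeR scaling factor, and fold changes are edgeR log2 fold changes with their standard error (SE). "Called" means a Benjamini-Hochberg adjusted p below 0.05 over all 18171 genes tested. The epithelial keratin KRT12 stood at 14397 to 27608 CPM and the stromal proteoglycan KERA at 3783 to 6715 CPM. These defining markers of cornea were thus high in every library, but not even between groups. Corneal epithelial markers summed to 25610 to 32990 CPM in blue light and 39530 to 40940 CPM in GL. In RL they summed to 29790 to 44720 CPM and in control to 25630 to 34420 CPM. RL 2 and RL 3 held the highest sums. The part of epithelial content in the differences of members was not tested. Lens transcripts summed to 2072 to 15820 CPM in blue light, 768.5 to 3546 CPM in GL, 652.2 to 3261 CPM in RL and 5393 to 8656 CPM in control libraries. Retinal transcripts were raised in blue light 1, GL 3 and control 2. The libraries could also be split into 2 sets by their number of genes at low counts, a split that no label names. Blue light 1 to 3, RL 1 and control 1 each had 2389 to 2563 genes at counts of 1 to 20, against 767 to 1461 such genes in the other 7 libraries. Every blue light library and no GL library is in the set of 5, so for blue light against GL the set and the light cannot be told apart. Whole tissue was sequenced, so fewer cells of a type and less RNA per cell cannot be told apart either.

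No member of the module was called in any comparison. The lowest edgeR adjusted p of a member was 0.260, for HSPE1 in blue light minus GL. HSPB8, with high levels in RL 2 and RL 3, had the lowest edgeR unadjusted p, 0.00327 in GL minus RL, and it was called there by DESeq2 and by an edgeR fit with a term for the library set. Among the ER members, the smallest edgeR unadjusted p over the 3 comparisons with control was that of DDIT3, lower in GL. In blue light minus control the smallest was that of HERPUD1. Between the 2 library sets, 0 members were called, and 13 of 37 members (35.1%) had an edgeR unadjusted p below 0.05, against 19.1% of all genes.

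Levels between genes were compared in FPKM, which is per transcript length. The mean over all 12 libraries was highest for HSPB1, the small heat shock protein that binds unfolding clients, at 330 FPKM. The cytosolic HSP90 isoforms HSP90AB1 and HSP90AA1 followed at 218 and 209 FPKM, with PDIA3, a disulfide isomerase of the ER, between them at 217 FPKM. XBP1 at 169 FPKM, CANX (the membrane lectin chaperone calnexin) at 124 FPKM and HSP90B1 (the ER HSP90) at 121 FPKM came next. The sensors of the ER pathway were scarce by comparison, with ATF6 at 9.02 FPKM, EIF2AK3 at 8.23 FPKM and ERN1 at 2.07 FPKM. Lowest were TRIB3, a pseudokinase downstream of ATF4, at 1.45 FPKM and CHAC1, which degrades glutathione, at 1.21 FPKM. HSPB8, a small heat shock protein that works with BAG3 in chaperone-assisted autophagy, was moderate at 26.2 FPKM. The order of HSP90AB1, PDIA3 and HSP90AA1 cannot be read from these means, because their group means with SD overlapped. HSPB1 overlapped with HSP90AB1 in the same way in blue light (216 ± 63.8 and 199 ± 42.5 FPKM), RL and control. In GL it did not, at 399 ± 41.1 FPKM for HSPB1 and 222 ± 21.8 FPKM for HSP90AB1.

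**Figure D1:**
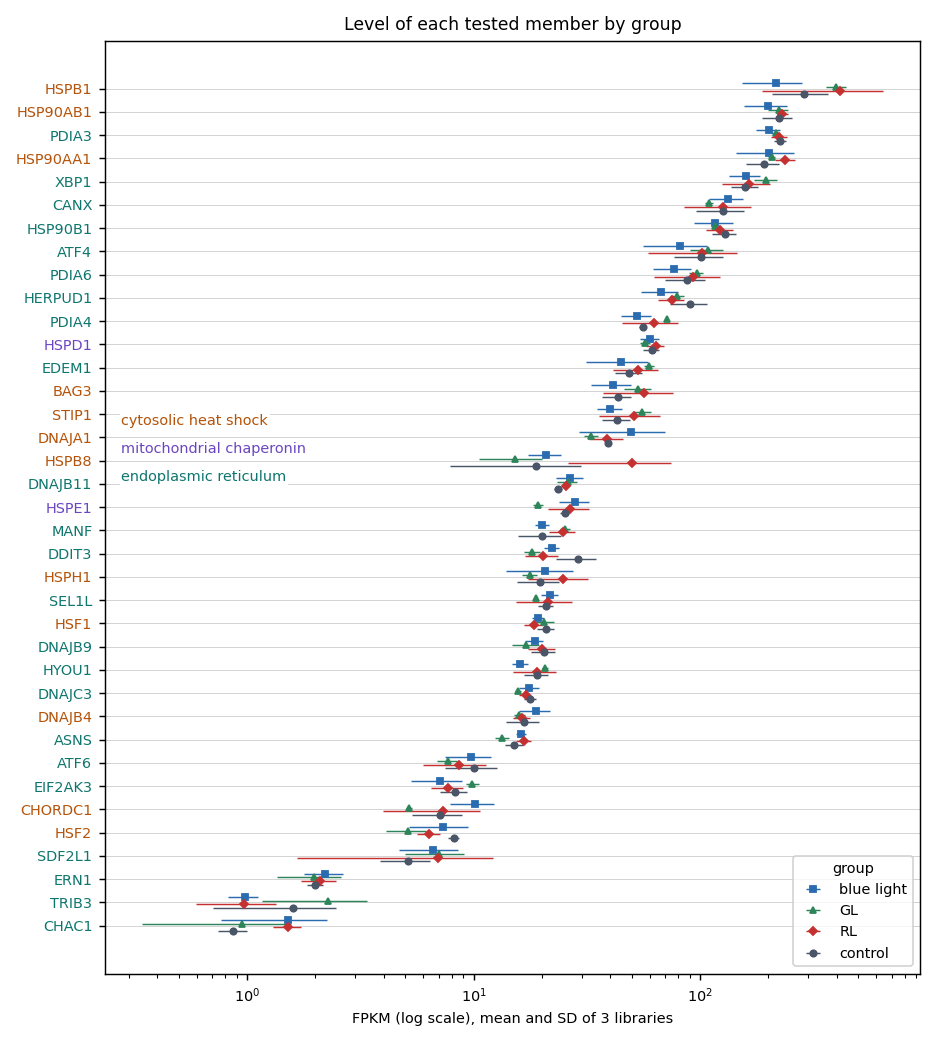
FPKM (log axis) of each of the 37 tested members, ordered by mean over 12 libraries, with a marker for the mean and a line for the SD of 3 libraries in each group. Members span from 1.21 to 330 FPKM, and within most members the 4 groups lie close together, with HSPB8 in RL standing apart to the right.

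Members differed widely in how much they varied. Across the 12 libraries, the highest CPM was 10.3 times the lowest for HSPB8, 6.69 times for CHAC1, 4.70 times for TRIB3, 3.95 times for SDF2L1 and 3.86 times for HSPB1. The steadiest were DNAJC3, an ER co-chaperone that also inhibits PERK, with a ratio of 1.18, and HSF1, the main heat shock transcription factor, with 1.30. At 1.34, DNAJB11, a co-chaperone of the ER HSP70, was nearly as steady. High variation was thus found in both cytosolic and ER members, and in both scarce and abundant ones.

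HSPB8 stood at 34.3, 48.2 and 37.8 CPM in blue light, at 26.2, 41.4 and 23.9 CPM in GL, at 44.8, 122 and 138 CPM in RL, and at 13.4, 40.6 and 54.7 CPM in control. RL 2 and RL 3 lay above all other libraries, RL 1 lay inside the control range, and control 1 was the lowest of the 12. The mean was 102 ± 49.9 CPM in RL and 36.2 ± 21.0 CPM in control (SD, n = 3 each), a log2 fold change of 1.49 ± 0.48 with an edgeR adjusted p of 0.969. Leaving out control 1 gave 1.1 and leaving out RL 1 gave 1.84 for the same difference. Over all alternative fits it ran from 1.085, with log2 library size as a covariate, to 1.916, without control 3. Against GL, where the mean was 30.5 ± 9.49 CPM, the groups did not overlap, and GL minus RL was -1.74 ± 0.48 on the log2 scale with an edgeR adjusted p of 0.402. Blue light minus RL was -1.34 ± 0.47 with an edgeR adjusted p of 0.910, and these groups overlapped. Blue light minus GL was 0.396 ± 0.468 with an edgeR adjusted p of 0.731. With the library set as a covariate it was 2.075 ± 0.339 with an edgeR adjusted p of 0.139, but there the light and the set cannot be told apart. Blue light minus control was 0.15 ± 0.47 with an edgeR adjusted p of 1, and it was 1.48 ± 0.29 with the library set as a covariate (adjusted p 0.628) and 1.58 ± 0.35 within the set of 5 (adjusted p 0.525), where control 1 is the lone control.

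The call on HSPB8 depended on the fit. DESeq2 called GL minus RL at -1.74 ± 0.46 with an adjusted p of 0.0201, in a fit that called 197 genes in place of 13. With the library set as a covariate, an alternative that left 15 genes called, edgeR gave -2.14 ± 0.25 with an adjusted p of 0.00676. RL minus control did not pass in either, with an adjusted p of 0.163 in DESeq2 and 0.0768 with the set term. Among the 7 libraries outside the set alone, RL 2 and RL 3 against the 3 GL libraries gave -2.09 ± 0.25 with an edgeR adjusted p of 0.0562. There RL minus control was 1.45 ± 0.29 with an edgeR adjusted p of 0.223. Within the set of 5, blue light minus RL for HSPB8 was -0.15 ± 0.32, with RL 1 as the lone RL library, assumed to vary like the others.

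Immediate early genes, which respond quickly to handling and stimulation, were read beside HSPB8. Their summed CPM ran from 624.4 to 1856 in blue light, 609.3 to 881.8 in GL, 1490 to 3431 in RL and 866.6 to 2343 in control libraries. The highest sum was in RL 3, which also held the highest HSPB8. RL 2, second in HSPB8, had a sum of 1490, below RL 1, blue light 3, control 1 and control 2, and control 1, lowest in HSPB8, had 1952. In GL minus RL, 16 of 17 tested immediate early genes were lower, with a median of -1.37 on the log2 scale. Of them, 10 had an edgeR unadjusted p below 0.05 (58.8%, against 8.60% of all genes), and 0 were called (0.0715% of all genes). In RL minus control, 14 of 17 were higher, with a median of 0.567, and 1 passed the same threshold (5.88%, against 4.74% of all genes). The part of these genes in the HSPB8 difference was not tested.

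The partners and neighbours of HSPB8 in the cytosolic response were set beside it. BAG3, the co-chaperone that HSPB8 binds, stood at 79.2, 119 and 121 CPM in blue light, at 119, 160 and 146 CPM in GL, at 92.4, 202 and 167 CPM in RL, and at 94.2, 113 and 127 CPM in control. RL 2 and RL 3 were again the highest, and RL 1 lay below every control library. RL minus control was 0.47 ± 0.26 on the log2 scale with an edgeR adjusted p of 1, and GL minus RL was -0.11 ± 0.26. HSPB1 stood at 146, 150 and 243 CPM in blue light, at 332, 311 and 386 CPM in GL, at 137, 426 and 530 CPM in RL, and at 169, 310 and 241 CPM in control. The GL libraries lay just above the control libraries, whereas RL ran from the lowest to the highest value of all 12. GL minus control was 0.51 ± 0.39 and RL minus control was 0.60 ± 0.39, with edgeR adjusted p of 0.733 and 1.

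Blue light minus RL for HSPB1 was -1.02 ± 0.40 with an edgeR adjusted p of 0.927, and within the set of 5 libraries the fitted difference was 0.40, of opposite sign. Blue light minus GL for HSPB1 was -0.93 ± 0.40, and 0.28 ± 0.37 with the set as a covariate. That set term is estimated from RL and control alone, so it cannot tell the light from the set here. An entry that carries no gene name but is annotated as a DnaJ subfamily B member 1, LOC100345293, was read after its values were seen, since DNAJB1 itself is one of the classical heat shock targets. It stood at 4.60, 8.57 and 8.15 CPM in blue light, at 8.42, 13.4 and 12.6 CPM in GL, at 4.14, 14.8 and 18.0 CPM in RL, and at 5.4, 10.9 and 11.3 CPM in control. Its highest values were again RL 2 and RL 3, and its 3 lowest were blue light 1, RL 1 and control 1, with no comparison called.

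**Figure D2:**
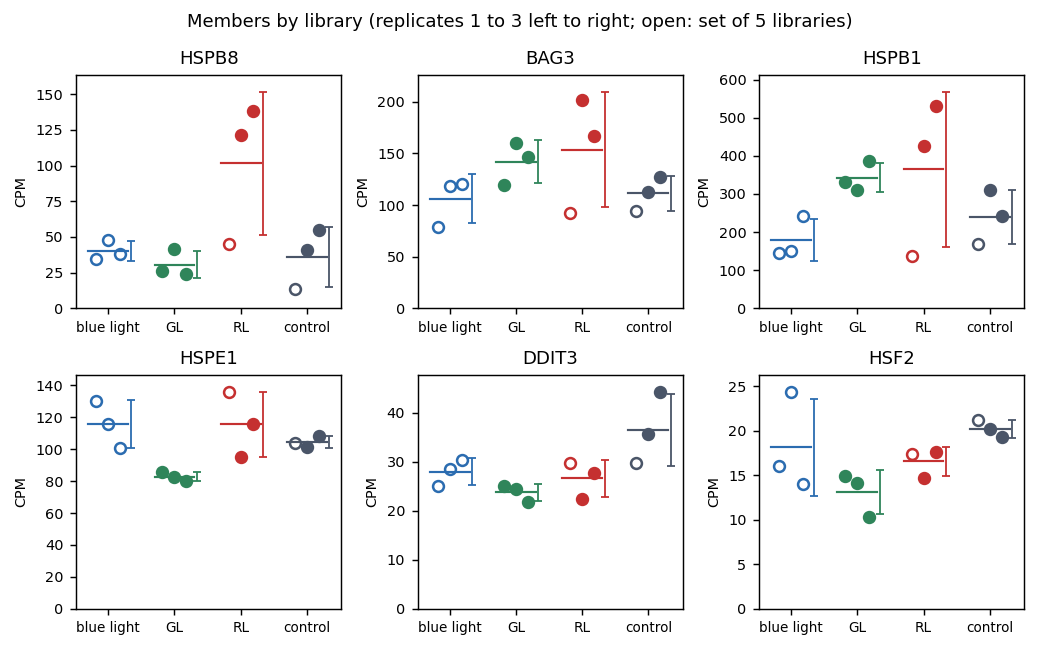
CPM of 6 members in each library (points, replicates 1 to 3 from left to right; open points mark the set of 5 libraries), with the group mean as a line and the SD of 3 libraries as a bar. HSPB8 reaches 122 and 138 CPM in RL 2 and RL 3, BAG3 and HSPB1 are also highest there, and DDIT3 and HSF2 lie lower in GL than in every control library.

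Among the remaining cytosolic members, HSP90AA1 averaged 577 ± 176 CPM in blue light, 611 ± 24.2 CPM in GL, 712 ± 85.3 CPM in RL and 546 ± 87.7 CPM in control (SD, n = 3 each), and RL minus control was 0.38 ± 0.21 with an edgeR adjusted p of 1. Its reads could be shared with 5 unnamed HSP90 copies that held counts, which summed to 3.95% to 6.96% of the CPM of HSP90AA1 and HSP90AB1. HSPH1, the HSP110 nucleotide exchange factor, averaged 81.9 ± 28.1 CPM in blue light, 72.8 ± 5.80 CPM in GL, 102 ± 28.0 CPM in RL and 78.0 ± 15.3 CPM in control. HSF1 averaged 36.6 ± 2.95 CPM in blue light, 40.3 ± 3.98 CPM in GL, 36.8 ± 3.14 CPM in RL and 39.8 ± 3.35 CPM in control. Its groups overlapped in every comparison. DNAJA1 and DNAJB4, co-chaperones of HSP70, and HSP90AB1 had fitted differences from control between -0.19 and 0.34 on the log2 scale in the 3 light groups, none called.

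HSF2, a heat shock factor active in development, stood at 14.9, 14.1 and 10.3 CPM in GL, against 21.3, 20.2 and 19.3 CPM in control. All 3 GL libraries lay below all 3 control libraries. GL minus control was -0.62 ± 0.24 on the log2 scale with an edgeR adjusted p of 0.597. The RL libraries, at 17.4, 14.7 and 17.6 CPM, also lay below the controls, with a smaller fitted difference of -0.29 ± 0.24. CHORDC1, an HSP90 co-chaperone, stood at 40.7, 41.8 and 27.8 CPM in blue light, against 19.7, 19.1 and 20.3 CPM in GL. Blue light minus GL was 0.90 ± 0.30 with an edgeR adjusted p of 0.261, and the groups did not overlap. CHORDC1 was also higher in the set of 5 libraries as a whole, so the light and the set cannot be told apart there.

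STIP1, which links HSP70 to HSP90, stood at 81.9, 75.3 and 96.9 CPM in blue light, against 126, 110 and 130 CPM in GL. The control libraries, at 83.6, 108 and 82.6 CPM, also lay below GL, by a narrow margin. Blue light minus GL was -0.53 ± 0.23 with an edgeR adjusted p of 0.311, and with the set as a covariate the difference was 0.002. For STIP1 too, the light and the set cannot be told apart.

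HSPD1 and HSPE1 encode the mitochondrial chaperonin and its lid, and they are placed head to head with 510 bp between them. HSPE1 stood at 130, 116 and 101 CPM in blue light, at 85.6, 82.8 and 79.8 CPM in GL, at 136, 95.3 and 116 CPM in RL, and at 104, 101 and 108 CPM in control. The GL libraries were the 3 lowest of the 12 and lay close together. GL minus control was -0.34 ± 0.16 on the log2 scale with an edgeR adjusted p of 0.610, blue light minus GL was 0.48 ± 0.16 with an adjusted p of 0.260, and GL minus RL was -0.48 ± 0.16 with an adjusted p of 0.50. HSPD1 averaged 147 ± 16.4 CPM in blue light, 145 ± 7.48 CPM in GL, 163 ± 15.0 CPM in RL and 150 ± 11 CPM in control. GL minus control was -0.05 ± 0.14 for HSPD1, and whether the 2 genes differ in this was not tested. The HSPE1 entry also carries the annotation of a MOB-like protein, so reads of both may be counted in it.

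Among the ER stress transcription factors, DDIT3 (CHOP), which promotes cell death after lasting stress, stood at 25.0, 28.6 and 30.3 CPM in blue light, at 25.1, 24.4 and 21.9 CPM in GL, at 29.7, 22.4 and 27.7 CPM in RL, and at 29.6, 35.6 and 44.2 CPM in control. Every GL library lay below every control library, and blue light and RL overlapped control at control 1. GL minus control was -0.62 ± 0.19 with an edgeR adjusted p of 0.501, RL minus control was -0.45 ± 0.19 with an adjusted p of 1, and blue light minus control was -0.38 ± 0.19 with an adjusted p of 1. The 3 comparisons share the control libraries, of which control 3 was the highest of the 12. ATF4, which acts upstream of DDIT3, averaged 88.2 ± 28.9 CPM in blue light, 122 ± 18.7 CPM in GL, 117 ± 52.1 CPM in RL and 110 ± 27.3 CPM in control (SD, n = 3 each). XBP1 stood at 279, 349 and 294 CPM in GL, against 205, 243 and 271 CPM in control. These groups did not overlap, and GL minus control was 0.36 ± 0.21 with an edgeR adjusted p of 0.635.

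Of the 3 sensors, EIF2AK3 stood at 23.7, 29.5 and 40.3 CPM in blue light, against 40.9, 46.8 and 47.3 CPM in GL. All blue light libraries were lower, by a narrow margin, and blue light minus GL was -0.53 ± 0.22 with an edgeR adjusted p of 0.295. Over the alternative fits this EIF2AK3 difference ran from -0.757 to -0.167. ATF6 averaged 33.0 ± 8.05 CPM in blue light, 27.0 ± 2.49 CPM in GL, 30.7 ± 8.99 CPM in RL and 34.2 ± 8.42 CPM in control. ERN1 averaged 15.0 ± 2.67 CPM in blue light, 13.9 ± 4.39 CPM in GL, 15.0 ± 2.97 CPM in RL and 13.6 ± 0.961 CPM in control. For both of these sensors the groups overlapped in every comparison.

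Among the ER folding genes, PDIA4, a disulfide isomerase, stood at 95.1, 123 and 133 CPM in blue light, at 162, 164 and 169 CPM in GL, at 106, 195 and 139 CPM in RL, and at 118, 131 and 123 CPM in control. The GL libraries were close to each other and above every blue light and control library. GL minus control was 0.41 ± 0.21 with an edgeR adjusted p of 0.610, and blue light minus GL was -0.49 ± 0.21 with an adjusted p of 0.301. Over the alternative fits, blue light minus GL for PDIA4 ran from -0.595 to -0.106. MANF, a secreted ER stress protein, averaged 26.6 ± 1.58 CPM in GL and 20.3 ± 4.15 CPM in control, and DNAJB11 averaged 45.7 ± 4.16 CPM in GL and 39.8 ± 1.15 CPM in control. Both were non-overlapping, with fitted differences of 0.39 ± 0.20 and 0.20 ± 0.15. HSP90B1, CANX, PDIA3, PDIA6 and HYOU1 overlapped with control in all 3 light groups, with fitted differences from -0.25 (HYOU1 in blue light) to 0.19 (PDIA6 in GL). SDF2L1, which assists ER co-chaperones, stood at 3.18, 12.6 and 4.13 CPM in RL, against 3.42, 4.78 and 5.72 CPM in control. RL 2 alone was high, and no difference was called.

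HERPUD1, SEL1L and EDEM1 serve degradation of misfolded ER protein. HERPUD1 stood at 107, 124 and 158 CPM in blue light, against 146, 215 and 165 CPM in control. Blue light 3 lay inside the control range and the other blue light libraries below it. Blue light minus control was -0.44 ± 0.20 with an edgeR adjusted p of 1. EDEM1 averaged 115 ± 8.04 CPM in GL and 90.4 ± 13.3 CPM in control without overlap, and GL minus control was 0.34 ± 0.24 with an edgeR adjusted p of 0.698. Of the scarce PERK pathway targets, TRIB3 stood at 1.98, 6.22 and 5.24 CPM in GL, against 1.37, 3.01 and 4.68 CPM in control. CHAC1 stood at 3.60, 4.96 and 4.01 CPM in RL, against 2.13, 2.12 and 2.67 CPM in control, without overlap, and RL minus control was 0.86 ± 0.53 with an edgeR adjusted p of 1. ASNS, the asparagine synthetase induced by ATF4, averaged 29.6 ± 1.45 CPM in blue light, 25.3 ± 1.99 CPM in GL, 31.8 ± 1.91 CPM in RL and 27.7 ± 2.31 CPM in control. GL lay below blue light and RL without overlap, and overlapped control.

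Over the module as a whole, the counts were set beside all genes. In blue light minus control, 0 of 37 members were called, against 0.0165% of all genes, 1 had an unadjusted p below 0.05 (3.26% of all genes), and 0 had non-overlapping groups (9.00% of all genes). In GL minus control, 0 members were called (0.0550% of all genes) and 2 had an unadjusted p below 0.05 (8.10% of all genes). There 12 members, 32.4%, did not overlap, against 18.5% of all genes. Of these, 7 lay above control (9.21% of all genes): HSPB1, STIP1, XBP1, PDIA4, EDEM1, MANF and DNAJB11. The other 5 lay below (9.25% of all genes): DNAJA1, HSF2, HSPE1, DDIT3 and DNAJC3. All GL libraries lie outside the set of 5 and control 1 lies inside it, and its part in these counts was not tested. In RL minus control, 0 members were called (0.0110% of all genes), 2 had an unadjusted p below 0.05 (4.74% of all genes), and 3 did not overlap (8.32% of all genes). These were CHAC1 and DNAJB11 above control (3.66% of all genes) and HSF2 below it (4.66% of all genes).

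The differences between light groups were read the same way. In blue light minus GL, 0 members were called (0.0495% of all genes), and 8 had an unadjusted p below 0.05 (14.9% of all genes), of which 2 were higher (8.30%) and 6 lower (6.57%). There 10 members did not overlap (26.9% of all genes), 3 above (14.6%) and 7 below (12.3%). In blue light minus RL, 0 were called (0.0110%), 2 had an unadjusted p below 0.05 (5.14%), and 1, MANF, did not overlap (8.99%). In GL minus RL, 0 were called (0.0715%), 2 had an unadjusted p below 0.05 (8.60%), and 5 did not overlap (13.2%), all of them lower in GL (6.33%). In the test for any difference among the 4 groups, 0 were called (0.0605% of all genes), and HSPB8, HSPE1 and DDIT3 had an unadjusted p below 0.05 (7.79% of all genes), with HSPB8 lowest at an edgeR unadjusted p of 0.00758.

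The cytosolic and ER members were then kept apart. In RL minus control, 10 of 12 cytosolic members had a positive fitted difference, with a median of 0.22 on the log2 scale, and 17 of 23 ER members did, with a median of 0.09. Over all genes, 9172 of 18171 did, with a median of 0.004. The ER median was -0.026 without RL 2 and 0.195 without RL 1, so its sign turned without RL 2. In GL minus control, 6 of 12 cytosolic members were positive, with a median of 0.003, and 13 of 23 ER members, with a median of 0.15. There 8766 of 18171 genes were positive, with a median of -0.017. In blue light minus control the medians were 0.002 for 12 cytosolic and -0.08 for 23 ER members, against 0.014 over all genes. These medians describe the lists and were not tested. The mean log2 CPM over the cytosolic members was 6.18, 6.59 and 6.28 in blue light, 6.32, 6.38 and 6.34 in GL, 6.39, 6.61 and 6.81 in RL, and 6.23, 6.37 and 6.39 in control. Over the ER members it was 5.5, 5.62 and 5.79 in blue light, 5.67, 5.88 and 5.80 in GL, 5.61, 5.95 and 5.75 in RL, and 5.59, 5.73 and 5.79 in control. RL 2 and RL 3 held the highest cytosolic means, and for the ER members the highest was RL 2, with RL 3 inside the control range.

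**Figure D3:**
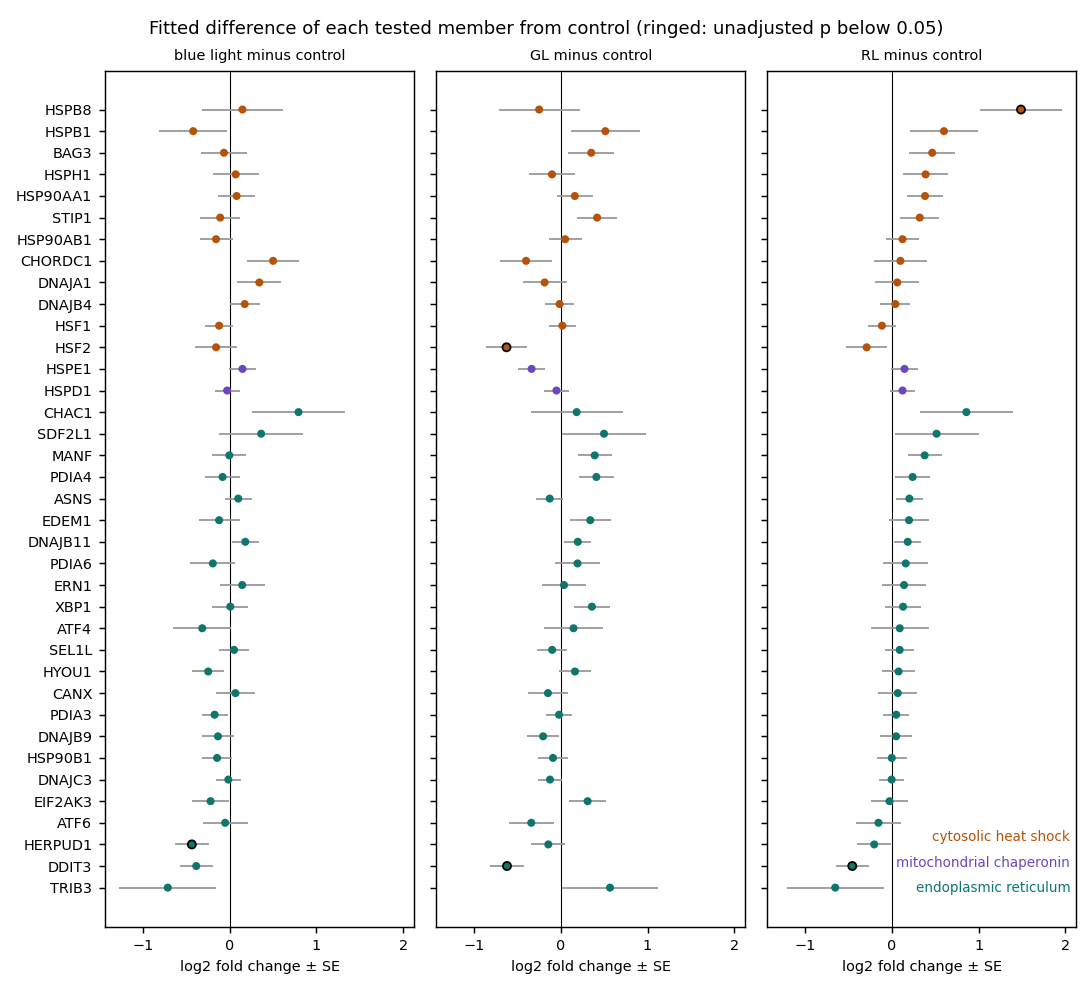
Fitted log2 fold change (point) and SE (line) of each tested member in blue light, GL and RL minus control, coloured by class, with a ring where the unadjusted edgeR p was below 0.05. The rings number 1, 2 and 2, no member was called, and HSPB8 in RL at 1.49 lies farthest from 0.

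Members were also compared between the 2 library sets, and none was called. Blue light lies wholly inside the set of 5 and GL wholly outside it. The fitted set difference rests on RL 1 against RL 2 and RL 3 and on control 1 against control 2 and control 3. With the 4 groups in the fit, 13 of 37 members (35.1%) had an unadjusted p below 0.05 for the set of 5 libraries minus the other 7, against 19.1% of all genes. Of these, 9 were lower (9.13% of all genes): HSPB8, HSPB1, ATF4, PDIA6, BAG3, STIP1, EDEM1, HYOU1 and HERPUD1. The other 4 were higher (9.92% of all genes): CHORDC1, CANX, ATF6 and SEL1L. The share called among all genes was 0.00550%. HSPB8 had the largest fitted difference at -1.68 ± 0.26 with an edgeR adjusted p of 0.0604, and HSPB1 followed at -1.22 ± 0.29 with an adjusted p of 0.0894. Without the groups in view, the HSPB8 medians were close, at 37.85 CPM in the set of 5 and 41.38 CPM in the other 7. Those of HSPB1 were 149.8 and 332.4 CPM. HYOU1, the large ER chaperone of the HSP110 class, ran from 65.7 to 77.6 CPM in the set of 5. In the other 7 libraries it ran from 87.7 to 110 CPM. It alone among the 13 did not overlap. The share of all genes without overlap between the sets was not computed, so this count is not read as a result.

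**Figure D4:**
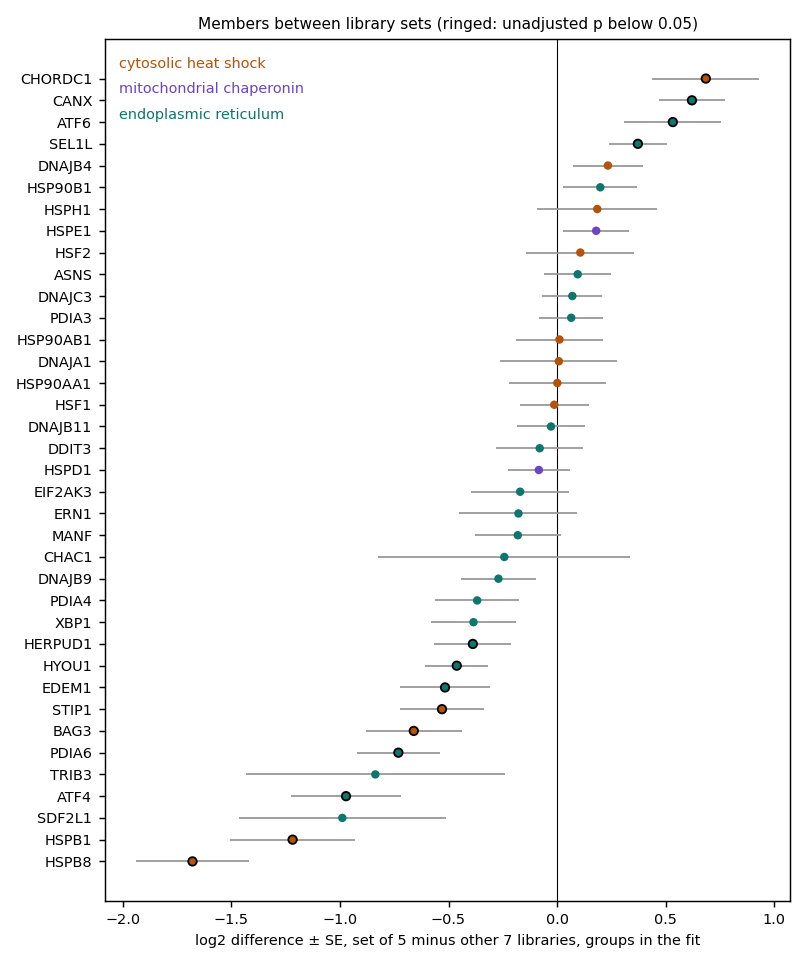
Fitted log2 difference and SE of each tested member between the set of 5 libraries (blue light 1 to 3, RL 1 and control 1) and the other 7, with the 4 groups in the fit. The difference rests on RL and control, the only groups with libraries in both sets. HSPB8 at -1.68 and HSPB1 at -1.22 lie farthest to the left and CHORDC1 at 0.69 farthest to the right, and rings mark the 13 members with an unadjusted edgeR p below 0.05.

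The heat map of all members by library shows this split across classes. Within RL and within control, replicate 1 was lower than replicates 2 and 3 for HSPB1, ATF4 and PDIA6 and higher than both for CANX. The GL libraries, none of them in the set, lay close together for most abundant members, as PDIA4 with 162 to 169 CPM and HSPE1 with 79.8 to 85.6 CPM show.

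**Figure D5:**
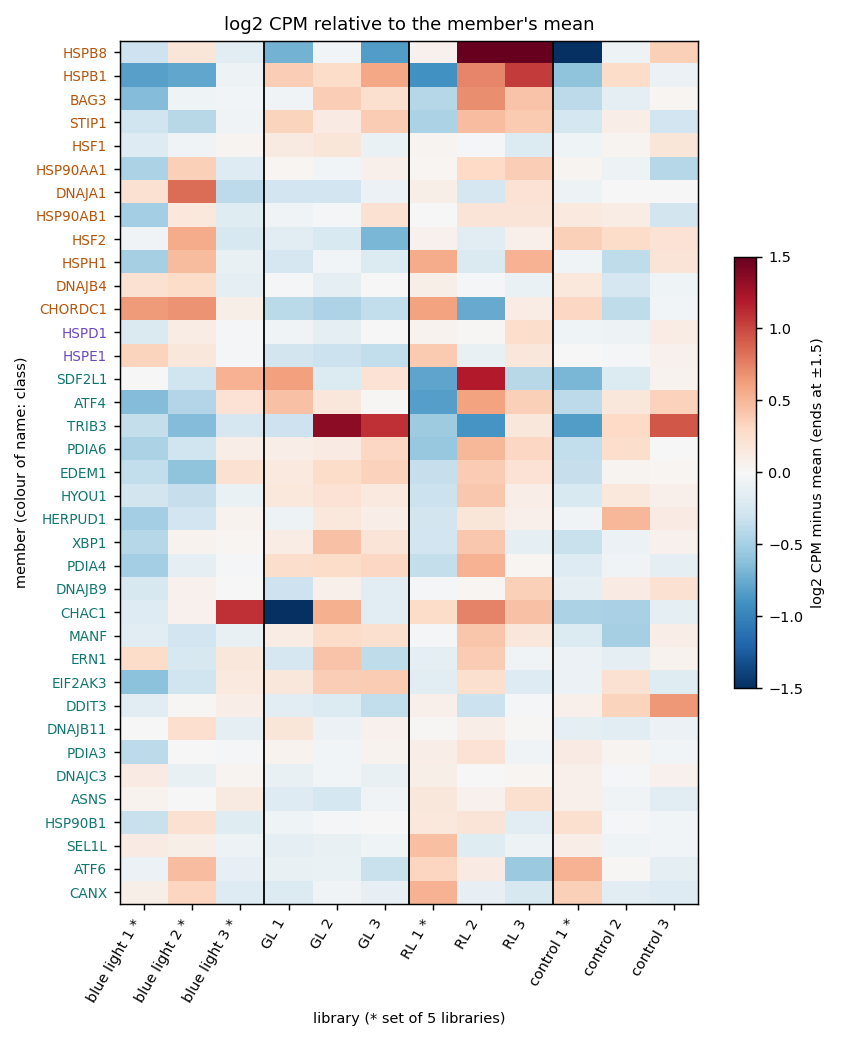
Log2 CPM of each tested member minus its mean over 12 libraries, with members grouped by class (name colours) and ordered by their difference between library sets; asterisks mark the set of 5 libraries, and the colour scale ends at 1.5 in either direction. RL 2 and RL 3 are reddest in HSPB8, and CHAC1, TRIB3 and SDF2L1 are patchy across libraries of a group.

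Other genes of both pathways were read from lists that hold no member. Of 33 other cytosolic chaperone genes, 31 were tested, and of 43 other unfolded protein response genes, 40 were tested. In each of the 6 comparisons 0 were called, against 0.0110% to 0.0715% of all genes, so none would be called at that share either. In RL minus control, 24 of 31 other chaperone genes were positive, with a median of 0.15 on the log2 scale, and 24 of 40 other unfolded protein response genes, with a median of 0.06. Over all genes, 9172 of 18171 were positive, with a median of 0.004. These counts were not tested. CCT5, a subunit of the cytosolic chaperonin, averaged 165 ± 9.70 CPM in RL and 126 ± 10.8 CPM in control (SD, n = 3 each), and RL minus control was 0.38 ± 0.15 with an edgeR adjusted p of 1. In GL minus control, 21 of 31 other chaperone genes were positive, with a median of 0.061. FKBP4 averaged 175.5 ± 19.5 CPM in GL and 129.4 ± 14.86 CPM in control, a difference of 0.44 ± 0.23 with an edgeR adjusted p of 0.619. FKBP5, an HSP90 co-chaperone induced by glucocorticoids, averaged 29.0 ± 11.9 CPM in GL and 73.8 ± 25.1 CPM in control. For FKBP5, GL minus control was -1.35 ± 0.74 with an edgeR adjusted p of 0.620. DERL1, a channel component for ER-associated degradation, averaged 105 ± 2.90 CPM in GL and 81.2 ± 0.991 CPM in control. For DERL1, GL minus control was 0.37 ± 0.17 with an edgeR adjusted p of 0.610. DERL3 went the other way, at 0 CPM in GL and 0.450 ± 0.553 CPM in control, where counts are very few. For DERL3, GL minus control was -7.62 ± 2.19 with an edgeR adjusted p of 0.479. The genes named from these lists are examples. DDIT4, a stress inhibitor of mTOR signalling, averaged 17.0 ± 3.91 CPM in blue light and 32.9 ± 14.3 CPM in control, and blue light minus control was -0.95 ± 0.39 with an edgeR adjusted p of 1.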

How the data were processed

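Per the file headers, the authors deposited estimated counts and FPKM for every gene in each library. The sources used here name no aligner or counter. The counts rise in steps of about 3.73, so 1 fragment was taken as 3.73 counts, which puts depth at roughly 11 to 17.4 M fragments. A floor of 3 fragments is then 0.173 to 0.258 CPM, and floors cover counting error only. The submitters' processing notes name a mouse build while the table lists rabbit sequences, so no coordinates are given.

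Rounded counts were fitted with edgeR 4.0.16 (R 4.3.3; quasi-likelihood test, filterByExpr, TMM factors 0.944 to 1.06) over all 12 libraries with 4 group means, for 6 pairwise differences and 1 test of any difference, with p-values adjusted over all 18171 genes. The biological coefficient of variation was 0.578. The script was tested on simulated data. Alternatives used limma 3.58.1 on log2(FPKM + 1) or + 0.1, and DESeq2 1.42.0. The members, lists and tests were chosen with earlier results of these data known. Values in every library are given for HSPB8 and for at most 6 members per comparison with an unadjusted p below 0.05, or the 2 lowest where fewer passed; further members were printed after their values were seen.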

Additional observations from a re-analysis of the deposited data

How the results depend on the processing

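Over 26 alternatives (12 of them leaving out 1 library), the number of members called stayed at 0 in 168 of 172 recomputations. It was 1, HSPB8, for GL minus RL and 1 for any difference, both with DESeq2 and with the library set as a covariate. The ER median for blue light minus control was 0.053 with the set covariate, against -0.081. For GL minus control it was 0.014 and -0.05 with limma on log2(FPKM + 1) and on log2(FPKM + 0.1) and -0.059 with log2 library size as a covariate, against 0.148; leaving out 1 library gave 0.011 (without GL 2) to 0.196. For RL minus control the ER median was 0.091, with -0.026 (without RL 2) to 0.195 (without RL 1), and -0.007 and -0.008 with the limma fits. The cytosolic medians near 0 took either sign when 1 library was left out, from -0.138 to 0.115 in blue light minus control and from -0.048 to 0.042 in GL minus control; that of RL minus control ran from 0.146 to 0.287. Signs turned for HSPB1 in blue light minus GL (0.284 with the set covariate, 0.088 with library size) and in blue light minus RL (0.398 within the 5 libraries), and for STIP1 in blue light minus GL (0.002 with the set covariate). They also turned for HSPB8 in blue light minus control (-0.003 without blue light 2, -0.236 without control 1, and up to 0.577 when 1 library was left out, but 1.48 with the set covariate and 1.579 within the 5 libraries, against 0.148) and in GL minus control (0.175 without control 3, down to -0.638 when 1 library was left out and -0.816 with library size as a covariate, against -0.248). The cause was not tested. The fits within 1 library set and that of the set's own difference were chosen after seeing the data. Over all genes, DESeq2 called 29, 147 and 81 genes for blue light, GL and RL minus control, 383, 77 and 197 for blue light minus GL, blue light minus RL and GL minus RL, and 267 for any difference, against 3, 10, 2, 9, 2, 13 and 11 in edgeR; the other settings gave 0 to 28. With the replicate block, 0 members were called in every comparison and 11 genes in GL minus control. Of 18 same-numbered pairs, 3 had r over 0.1 (range -0.07 to 0.24), and 5 of 12 libraries matched their own number best. The labels do not say that the numbers pair animals, and these correlations cannot settle it. The fit of only the groups compared does not apply to the test of any difference. Depth limits CHAC1, TRIB3 and SDF2L1 most, whose counts are few.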
